A study of Mus musculus with 12 samples.

Results

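The myeloid genes followed here are 38 genes of macrophages, monocytes, neutrophils and dendritic cells, chosen by symbol, and all 38 were found among the 47593 Ensembl genes for which values were deposited. They were measured by bulk RNA sequencing of 12 mammary tumors from 9 female mice, all of one condition, so that the comparisons open to these data are between tumors, between mice and between tumors of the same mouse. The labels give the genotype as MADM RG;GR alleles on a mixed background, the tissue as mammary gland and the treatment as none, and they give no age. In this model, called MADM-mutant, the mouse is heterozygous for Brca1 and p53, and MMTV-Cre, which is aimed at mammary epithelial cells, drives a rare exchange between chromosomes in dividing cells. A few daughter cells thereby lose the intact copies of both genes and gain GFP, and tumors grow from such cells. The other cells of the animal, to which infiltrating myeloid cells belong, keep the heterozygous genotype unless Cre acts in them. Tumors carry the numbers 1 to 12 of the labels. Tumors 3 and 4 came from 1 mouse, tumors 10, 11 and 12 from another, and each of the other 7 mice gave 1 tumor.

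Myeloid cells are mostly made in the bone marrow and enter tumors from the blood, while some macrophages are residents of the tissue. Monocytes that enter tissue turn into macrophages under the growth factor Csf1 acting on its receptor Csf1r, and macrophages take up dead cells, lipid and matrix and can be shifted by their surroundings towards different sets of enzymes and surface receptors. Neutrophils are short-lived cells rich in the calcium-binding proteins S100a8 and S100a9, and dendritic cells, which depend on the receptor Flt3, carry antigen to T cells. RNA was taken from whole tumor pieces. In such bulk samples fewer cells of a type and less RNA per cell cannot be told apart.

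Levels are in TPM, in which the reads of a gene are divided by its length and each tumor is scaled to a total of 1000000, so that levels may be set side by side between genes. Depth cannot be recovered from TPM, and no counting interval is given. Means and SDs are over 9 mice, with the tumors of a mouse averaged on the TPM scale, and tests used log2(TPM + 1). Tumors 2 and 8 stood apart in the genes of other cell types. Tumor 2 listed the epithelial gene Epcam at 0 and had a summed level of 1.38 TPM over 7 epithelial genes. It had 4725 TPM over 6 B lymphocyte genes, against 337 TPM in the next tumor. Ighm made up 2873 TPM of the 4725 TPM, and Ms4a1 was higher in tumor 9, with 11.7 against 2.18 TPM. Tumor 8 had 2.03 TPM of Epcam, 159 TPM over the epithelial genes and 2623 TPM over 6 fibroblast genes, of which Dcn made up 1732 TPM, while the median over the 6 was higher in tumor 4, with 215 against 190.0 TPM. Both are mammary tumors by their labels. Because tumor 2 was also the lowest in many myeloid genes, results are given with and without it, and a second set without both was added after the data had been seen.

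The sequences upstream of 2 pairs of neighbouring genes are shown because their members had nearly the same pattern over the tumors. S100a8 and S100a9 lie side by side on chromosome 3, at chr3:90668978-90670035 on the plus strand and chr3:90692632-90695721 on the minus strand. C1qb and C1qc lie together with C1qa on the minus strand of chromosome 4, at chr4:136880129-136886187, chr4:136889804-136893065 and chr4:136895917-136898803. Each promoter runs from 250 bases before to 50 bases after the start of transcription and comes from RefSeq on GRCm38.p6, 5′ to 3′ on the strand of the gene. The RefSeq start of C1qb lies 13 bases upstream of the gene span given above, which is from GENCODE, and those of the other 3 lie at its edge or inside it. Capitals mark 2 motifs, sought on both strands: GAGGAA, a core bound by PU.1, the factor that myeloid cells require, and TTGCNNAA, a site bound by C/EBP factors, which neutrophils require.

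S100a8, chr3:90668821-90669120, plus strand: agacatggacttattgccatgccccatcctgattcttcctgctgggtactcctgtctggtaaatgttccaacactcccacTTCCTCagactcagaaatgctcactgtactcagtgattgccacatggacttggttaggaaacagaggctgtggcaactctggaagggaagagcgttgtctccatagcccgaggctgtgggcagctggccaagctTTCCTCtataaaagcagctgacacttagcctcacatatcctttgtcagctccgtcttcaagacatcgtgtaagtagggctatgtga

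S100a9, chr3:90695672-90695971, minus strand: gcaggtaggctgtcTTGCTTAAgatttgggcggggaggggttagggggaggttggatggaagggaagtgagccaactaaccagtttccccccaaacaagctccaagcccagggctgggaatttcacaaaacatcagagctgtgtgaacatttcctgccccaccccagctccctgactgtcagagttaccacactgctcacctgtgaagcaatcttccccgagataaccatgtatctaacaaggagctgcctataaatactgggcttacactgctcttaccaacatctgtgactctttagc

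C1qb, chr4:136886151-136886450, minus strand: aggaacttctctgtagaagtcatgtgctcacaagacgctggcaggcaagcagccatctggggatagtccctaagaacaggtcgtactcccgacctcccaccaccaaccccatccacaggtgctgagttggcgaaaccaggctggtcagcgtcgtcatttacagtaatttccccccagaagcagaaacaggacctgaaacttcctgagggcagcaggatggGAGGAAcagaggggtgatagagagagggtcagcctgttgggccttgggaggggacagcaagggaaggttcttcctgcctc

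C1qc, chr4:136892865-136893164, minus strand: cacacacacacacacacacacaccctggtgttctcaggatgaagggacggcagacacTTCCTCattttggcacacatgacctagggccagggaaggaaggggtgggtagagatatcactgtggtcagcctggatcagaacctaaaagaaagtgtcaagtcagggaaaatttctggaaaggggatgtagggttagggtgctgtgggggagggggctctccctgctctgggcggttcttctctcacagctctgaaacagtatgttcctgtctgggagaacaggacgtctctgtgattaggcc

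The S100a8 window held the PU.1 core at 2 places and no C/EBP motif, and the S100a9 window held the C/EBP motif at 1 place and no PU.1 core. The C1qb and C1qc windows each held 1 PU.1 core. Of the 38 genes, 30 had a promoter in the table, and 18 of these 30 (60.0%) held the PU.1 core in at least 1 window, against 31.3% of 27025 genes. The C/EBP motif was held by 7 of 30 (23.3%), against 12.2% of genes. These are matches of letters and not tested sites, and no count here is a test.

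The level of the myeloid genes differed widely between genes and between tumors. The osteopontin gene Spp1 had the highest median over the 12 tumors, 2525 TPM, followed by the lipid carrier Apoe with 1449 TPM, the lysozyme Lyz2 with 1185 TPM and the 3 chains of complement C1q with 546 TPM for C1qa, 508 TPM for C1qb and 431 TPM for C1qc. The SDs of the C1q chains overlapped, with 591 ± 262 TPM for C1qa, 527 ± 218 TPM for C1qb and 463 ± 197 TPM for C1qc (SD, n = 9 mice). At the other end, Marco, Mpo and Cd209a had a median of 0 TPM. In all, 22 of 38 genes reached 1 TPM in every tumor, where 25.2% of all genes did, and 7 were listed at 0 in at least 1 tumor. Of the 32 genes with a mean of 1 TPM or more, 22 were lowest in tumor 2, where 31.3% of all such genes were, and 16 were highest in tumor 8, where 11.8% were. Together the 38 genes took from 0.180% of the TPM in tumor 2 to 1.18% in tumor 10.

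**Figure D1:**
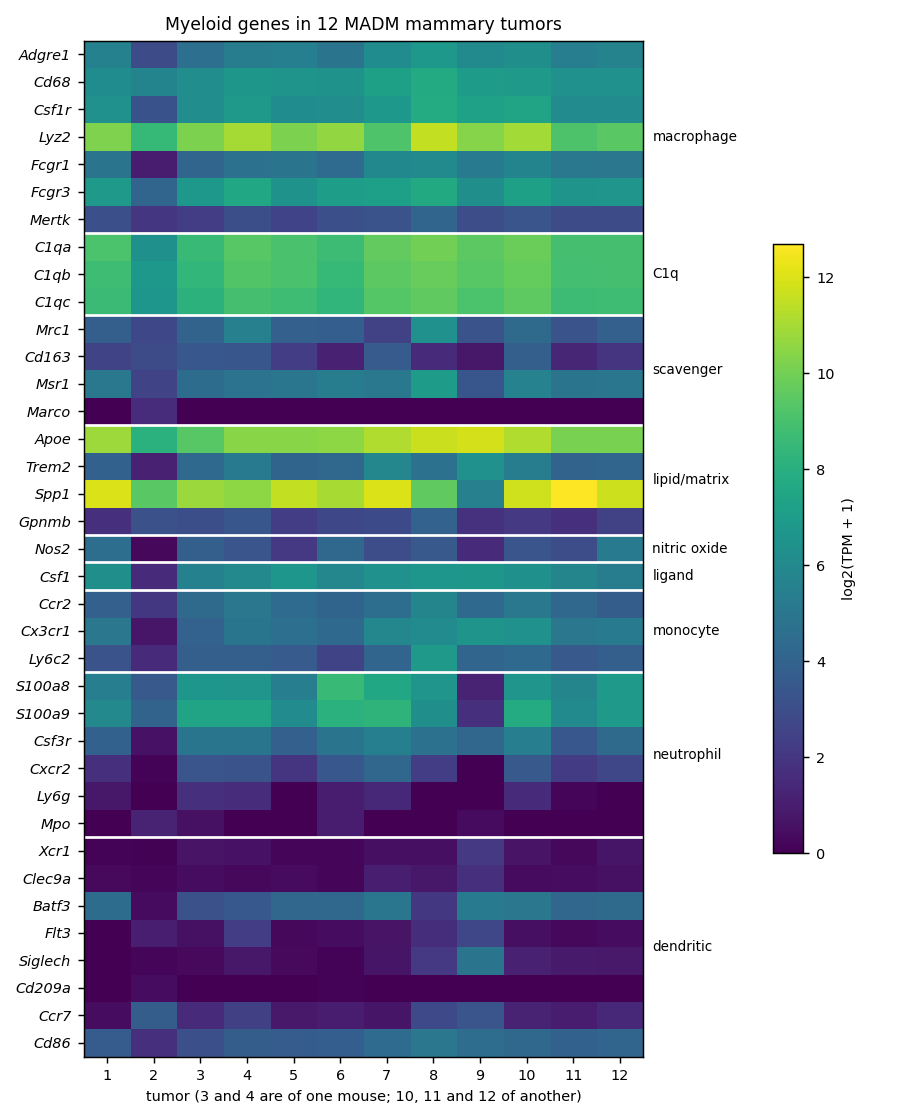
Level of 37 of the 38 myeloid genes (rows, grouped by role) in each of the 12 tumors (columns), as log2(TPM + 1) in color. Tumor 2 is dark for most macrophage, monocyte and neutrophil genes, tumor 8 is brightest for 16 genes, and tumor 9 is dark for S100a8 and S100a9 and bright for Siglech.

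The genes that mark macrophages were listed in all 12 tumors, with the lowest level in tumor 2. Adgre1, the gene of the macrophage surface protein F4/80, ranged from 6.61 TPM in tumor 2 over a median of 45.2 TPM to 106 TPM in tumor 8, and had 51.2 ± 29.0 TPM (SD, n = 9 mice). Outside tumor 2 the lowest level of Adgre1 was 24.2 TPM, in tumor 3. Csf1r, the receptor through which macrophages receive their survival signal, ranged from 8.11 TPM in tumor 2 over 79.8 TPM to 222 TPM in tumor 8, and all tumors but tumor 2 had 69.3 TPM or more. Fcgr1, a high-affinity receptor for antibody, had 1.05 TPM in tumor 2, a median of 30.1 TPM, 60.6 TPM in tumor 7 and 64.7 TPM in tumor 8. Tumors 7, 8 and 10 were the 3 highest in both Adgre1 and Fcgr1.

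Among the other macrophage genes, Cd68, Lyz2 and Mertk were less depleted in tumor 2 than Adgre1, whereas Fcgr3 was depleted about as much. Cd68, a protein of lysosomes, had 52.9 TPM in tumor 2, a median of 91.8 TPM and 218 TPM in tumor 8. Its SD over mice was 0.59 on the log2(TPM + 1) scale, against 1.10 for Adgre1. Lyz2 ranged from 361 TPM in tumor 2 to 2941 TPM in tumor 8, with 575, 578 and 687 TPM in tumors 11, 7 and 12. Tumor 7 was therefore high in Adgre1 and low in Lyz2. Fcgr3, a low-affinity antibody receptor, ranged from 16.9 TPM over 109 TPM to 212 TPM, and Mertk, a receptor for dying cells, from 2.98 TPM over 7.12 TPM to 16.6 TPM, each with tumor 2 lowest and tumor 8 highest. Lyz2 and Fcgr3 are uncertain where reads could be split with their close relatives Lyz1, which had 2.84 to 47.7 TPM, and Fcgr2b, which had 71.2 to 315 TPM, and both of these were chosen after their values were seen.

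The C1q chains, which macrophages secrete to tag dead cells and debris, followed Adgre1 closely. C1qa ranged from 82.8 TPM in tumor 2 to 1026 TPM in tumor 8, C1qb from 109.5 to 855 TPM and C1qc from 99.1 to 778 TPM, in the same 2 tumors. The ratio of C1qa to Adgre1 in TPM lay between 9.64 in tumor 8 and 16.4 in tumor 4, and was 12.5 in tumor 2. Over the 12 tumors it therefore varied much less than the level of either gene. Outside tumor 2 the contrast was smaller, with 394 to 1026 TPM of C1qa and 24.2 to 106 TPM of Adgre1.

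Scavenger receptors, which take up modified lipid, sugars and debris, did not share a pattern. Mrc1, the mannose receptor, ranged from 4.66 TPM in tumor 7 over 13.4 TPM to 85.4 TPM in tumor 8, with 45.9 TPM in tumor 4 next. Cd163, the hemoglobin receptor of resident macrophages, was highest in tumor 10 with 13.3 TPM and lowest in tumor 9 with 0.766 TPM, and tumor 2, low in most macrophage genes, had 6.80 TPM. Msr1 ranged from 5.02 TPM in tumor 2 over 30.3 TPM to 129 TPM in tumor 8, with 9.43 TPM in tumor 9. Marco had 2.06 TPM in tumor 2 and was listed at 0 in the other 11 tumors. Tumor 8 was thus the highest in Mrc1 and Msr1, but had 1.94 TPM of Cd163, under the median of 4.48 TPM.

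Of the genes of lipid-laden and matrix-bound macrophages, Apoe and Trem2 were highest and Spp1 was lowest in tumor 9. Apoe, which carries cholesterol out of cells, ranged from 272 TPM in tumor 2 over 1449 TPM to 3727 TPM in tumor 9, with 3262 TPM in tumor 8 next, and Trem2, a lipid-sensing receptor, from 1.22 TPM in tumor 2 over 18.7 TPM to 84.3 TPM in tumor 9. Spp1 went the other way in tumor 9, where it had 45.7 TPM, against 705 TPM in tumor 2, 781 TPM in tumor 8 and 1495 TPM or more in the rest, up to 6629.9 TPM in tumor 11. Spp1 is also made by epithelial cells, and its level need not come from macrophages. Gpnmb, a lysosomal glycoprotein of lipid-laden macrophages, ranged from 2.24 TPM in tumor 1 to 14.8 TPM in tumor 8, and tumor 9 had 2.45 TPM.

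Nos2, the enzyme that makes nitric oxide, was low in the 2 tumors that were also the lowest in S100a8. It had 0.197 TPM in tumor 2, 1.82 TPM in tumor 9, a median of 9.15 TPM and 38.2 TPM in tumor 12, with 23.1 TPM in tumor 1 next. Outside tumors 2 and 9 its lowest level was 3.32 TPM, in tumor 5, while tumor 9 had more Adgre1 than 8 of the other tumors.

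The monocyte genes were lowest in tumor 2, while Ccr2 and Ly6c2 were highest in tumor 8 and Cx3cr1 in tumor 9. Ccr2, the receptor that brings monocytes out of the marrow, ranged from 3.17 TPM in tumor 2 over 19.5 TPM to 54.1 TPM in tumor 8. Cx3cr1, a chemokine receptor of monocytes and of macrophages derived from them, ranged from 0.730 TPM in tumor 2 over 31.4 TPM to 92.8 TPM in tumor 9, with 85.2 TPM in tumor 10. Ly6c2, a surface protein of inflammatory monocytes, had 118 TPM in tumor 8, 19.2 TPM or less in the other tumors and 1.98 TPM in tumor 2. Reads of Ly6c2 could be split with its near copy Ly6c1, which endothelial cells express and which had 7.90 TPM in tumor 2, 111 TPM in tumor 8 and 104 TPM in tumor 12 (Ly6c1 was chosen after its values were seen). The summed level of 4 endothelial genes was also highest in tumor 8, with 135 TPM against 75.6 TPM in tumor 7, and its part in the Ly6c2 level was not tested.

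Csf1, the ligand of Csf1r, had 1.93 TPM in tumor 2 and from 39.8 TPM in tumor 12 to 104 TPM in tumor 9 in the other 11. Il34, the second ligand of that receptor, had 2.25 TPM in tumor 9 and 2.64 TPM in tumor 2, and 25.1 TPM or more elsewhere. Ccl2, a ligand of Ccr2, had 584 TPM in tumor 8, 106 TPM in tumor 7 and 1.27 TPM in tumor 2. In tumor 8, the tumor highest in Ccr2 and Ly6c2, the 2 other Ccr2 ligands followed, Ccl7 and Ccl12, were also at their highest, with 115 and 134 TPM.

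Neutrophil genes were carried by S100a8 and S100a9, and tumor 9 was the lowest in both. S100a8 had 1.34 TPM in tumor 9, 10.8 TPM in tumor 2, 41.9 TPM in each of tumors 1 and 5, a median of 96.4 TPM, 187 TPM in tumor 7 and 386 TPM in tumor 6. S100a9 had 2.31 TPM in tumor 9, 15.5 TPM in tumor 2, a median of 96.3 TPM, 271 TPM in tumor 6 and 308 TPM in tumor 7. Tumors 6 and 7 were the 2 highest in both genes.

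The neutrophil receptors did not follow them in every tumor. Csf3r, the receptor for the neutrophil growth factor G-CSF, had 17.5 TPM in tumor 9, inside the range of the other tumors, while tumor 2 had 0.522 TPM and tumor 7 had 44.0 TPM. Cxcr2, through which neutrophils are drawn into tissue, was listed at 0 in tumor 9, had 0.105 TPM in tumor 2 and reached 17.4 TPM in tumor 7. Csf3, the gene of G-CSF, was listed at 0 in tumor 2, had 0.171 TPM in tumor 9 and was highest in tumor 7 with 70.9 TPM and in tumor 12 with 44.7 TPM.

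Ly6g, the defining surface marker of mature mouse neutrophils, was listed at 0 in 5 tumors and did not exceed 2.31 TPM, and Mpo, an enzyme of immature granulocytes, was listed at 0 in 8 tumors and did not exceed 1.41 TPM. The granule genes Elane and Ctsg of the same stage did not exceed 1.60 and 1.54 TPM. Other genes often used for neutrophils followed S100a8 and S100a9 only in part. Ngp and Retnlg were highest in tumor 6, with 7.34 and 6.38 TPM, and Mmp8 in tumor 7, with 3.57 TPM. In tumor 9 Ngp and Mmp8 were listed at 0 and Retnlg had 1.07 TPM. Il1b and Fpr1 were highest in tumor 8, and Itgal, Cxcr4 and Ceacam10 in tumor 9. Mmp9 had 827 TPM in tumor 8 and 27.8 TPM or less elsewhere, and Ltf, which is also a milk protein, ranged from 0.792 TPM in tumor 2 and 0.854 TPM in tumor 8 to 411 TPM in tumor 7. The label neutrophil therefore rests mostly on S100a8, S100a9, Csf3r and Cxcr2, with Ngp, Mmp8 and Retnlg at low levels beside them. Epithelial cells can make S100a8 and S100a9 as well.

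Of the dendritic cell genes, Siglech, Xcr1, Clec9a and Flt3 were highest in tumor 9 and had 3.96 TPM or less elsewhere. Siglech, a receptor of plasmacytoid dendritic cells, had 29.0 TPM in tumor 9, 3.33 TPM in tumor 8 and 1.24 TPM or less in the other 10. Xcr1 and Clec9a, which mark the dendritic cells that cross-present antigen, had 3.25 and 2.36 TPM in tumor 9 and at most 0.655 and 1.11 TPM elsewhere, and Flt3 had 5.48 TPM in tumor 9, 3.96 TPM in tumor 4 and 2.11 TPM or less in the other 10. Flt3l, the ligand of Flt3, had 236 TPM in tumor 9 and 11.7 TPM or less in the other tumors. Itgae, another gene of cross-presenting dendritic cells and of T cells in epithelium, had 24.7 TPM in tumor 9 and 3.88 TPM or less elsewhere. Zbtb46, Ccl22, Cd83 and Ccr9, further dendritic cell genes, were also highest in tumor 9. Other genes of that list went the other way. Tcf4 was lowest in tumor 9, with 12.0 TPM against a median of 23.3 TPM. Fscn1 and Cd207 were under their medians there, and Klk1 was highest in tumor 8.

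In tumor 9 lymphocyte genes were high as well. The summed level of 7 T and NK cell genes was 84.1 TPM, next to 89.2 TPM in tumor 8, of which Cd4 made up 41.6 TPM. The median over the 7 was highest in tumor 9, with 14.0 against 6.87 TPM in tumor 8, and the summed level of 6 B lymphocyte genes was 337 TPM, second to tumor 2. Their part in the level of Flt3, Itgae or Siglech was not tested. Tumor 9 listed all 3 markers Xcr1, Clec9a and Siglech above 1 TPM, and no other tumor did.

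Batf3, a factor needed by cross-presenting dendritic cells, was far more abundant than Xcr1 or Clec9a. It had 0.301 TPM in tumor 2, 3.14 TPM in tumor 8, 7.88 to 31.5 TPM in a further 9 tumors, and 35.3 TPM in tumor 9. Cd209a was listed at 0 in 10 tumors and did not exceed 0.357 TPM. Ccr7, which guides mature dendritic cells and also naive lymphocytes to lymph nodes, had 12.6 TPM in tumor 2, 9.19 TPM in tumor 9, 6.01 TPM in tumor 8 and 4.24 TPM or less in the rest. Cd86, a costimulatory protein of dendritic cells, macrophages and B cells, ranged from 2.32 TPM in tumor 2 over 13.7 TPM to 32.2 TPM in tumor 8. Irf8, Irf4 and Wdfy4, which dendritic cells share with B cells, had 193, 100 and 51.6 TPM in tumor 2, where the B lymphocyte gene Cd79a had 609 TPM, and reached at most 69.6, 2.83 and 12.0 TPM elsewhere.

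**Figure D2:**
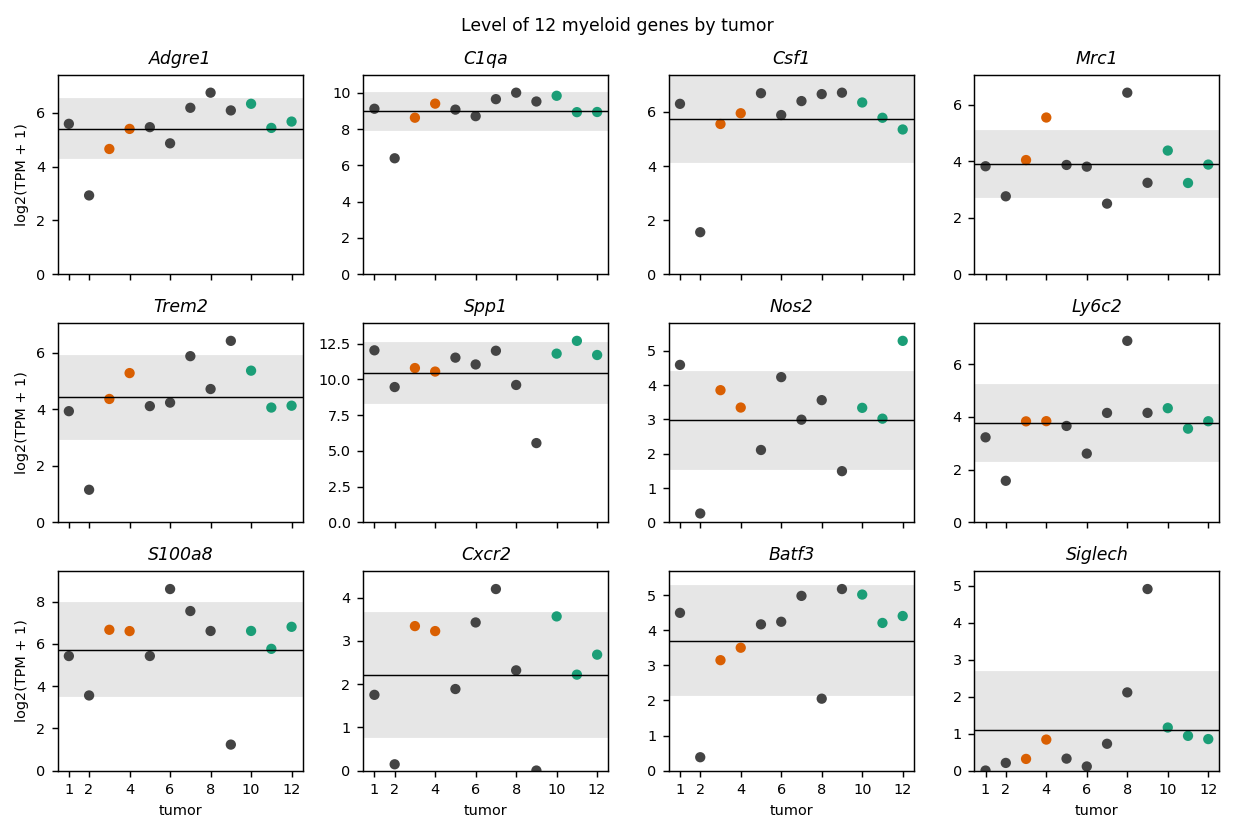
Level of 12 of the genes in each tumor as log2(TPM + 1), with the mean (line) and 1 SD either way (grey) over 9 mice, tumors 3 and 4 in orange and tumors 10, 11 and 12 in green. Adgre1, C1qa and Csf1 are lowest in tumor 2, S100a8, Cxcr2 and Spp1 are lowest in tumor 9, Ly6c2 and Mrc1 are highest in tumor 8, and Siglech is highest in tumor 9.

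Which myeloid genes differed more between mice than between tumors of one mouse was asked with limma's moderated F test over the 16779 genes with a mean of 1 TPM or more, in which the spread within mice rests on 5 tumors of 2 mice (3 residual degrees of freedom). Of the 38 genes, 32 passed this filter, and Marco, Ly6g, Mpo, Xcr1, Clec9a and Cd209a did not. Siglech and Flt3 passed it only through tumor 9, and their results are therefore no support for a difference. At a Benjamini-Hochberg adjusted p under 0.05, 19 of the 32 were called, where 42.9% of all genes tested were called. Without tumor 2 the count fell to 10 of 32, or 31.3%, where 25.1% of all genes were called, and without tumors 3 and 4 it was 11 of 32, where 14.3% were called.

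The 10 genes called without tumor 2 were all among the first 19, and none of them is among the 7 macrophage marker genes or the C1q chains. Among them were Spp1, Msr1, Ly6c2, S100a8, S100a9, Cxcr2, Batf3, Siglech and Ccr7. The adjusted p from limma was 0.0049 for S100a8 with all tumors and 0.0083 without tumor 2, and 0.0053 and 0.0081 for Spp1. Adgre1, Csf1r, Fcgr1, Csf1 and Cx3cr1 were called with all tumors and not without tumor 2. Without tumors 3 and 4 the F test also had another estimate of the spread within mice, so calls lost or gained cannot be laid to those tumors alone. S100a9, Cxcr2 and Msr1 were then no longer called (adjusted p = 0.069, 0.096 and 0.054, limma). Spp1, Ly6c2, S100a8, Batf3 and Ccr7 were called, and so were Fcgr1, Csf1 and Cd86 (adjusted p = 0.038, 0.044 and 0.045, limma). Of the C1q chains 0 of 3 were called with all tumors (adjusted p between 0.051 and 0.073, limma), while at an unadjusted p under 0.05 the test called 3 of 3 of them and 9902 of the 16779 genes. Without both tumors 2 and 8, 6 of 32 (18.8%) were called, where 20.8% of all genes were. The 6 included Spp1, S100a8, S100a9 and Cxcr2, and also Siglech, which passed the filter only through tumor 9. The myeloid genes were then called no more often than genes in general.

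Tumors of one mouse differed in the myeloid genes by nearly as much as tumors of different mice. Over the 32 genes the median absolute difference in log2(TPM + 1) was 0.68 over the 4 pairs of tumors of one mouse (range 0.25 to 0.83) and 0.77 over the 62 other pairs, or 0.73 over the 51 pairs without tumor 2. For all 16779 genes the same medians were 0.27, 0.47 and 0.45. This is a description, and the pairs share tumors.

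In both mice with several tumors, 1 tumor had more of most myeloid genes. Tumor 4 was higher than tumor 3 in 25 of 32 genes, by a median of 0.62 on the log2(TPM + 1) scale, where 43.9% of all genes were higher and the median was -0.04. Tumor 10 was higher than tumor 11 in 30 of 32, by 0.80 (51.5% of all genes, median 0.02), and higher than tumor 12 in 27 of 32, by 0.66 (47.3%, median -0.03). Tumor 11 was higher than tumor 12 in 6 of 32 genes and lower in 26, with a median of -0.19 (43.0% of all genes higher, median -0.05).

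The macrophage genes moved as a block in these pairs. All 7 macrophage marker genes and all 3 C1q genes were higher in tumor 4 than in tumor 3, and higher in tumor 10 than in tumors 11 and 12. C1qa had 675 against 394 TPM in tumors 4 and 3, and 912 against 487 and 490 TPM in tumors 10, 11 and 12. Of 21 further macrophage genes, 20 were higher in tumor 4 than in tumor 3, 20 were higher in tumor 10 than in tumor 11 and 19 than in tumor 12.

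Nos2 and the neutrophil genes went with that block only in part. Nos2 had 9.18 against 13.5 TPM in tumors 4 and 3. It had 9.12 TPM in tumor 10, more than the 7.13 TPM of tumor 11 and less than the 38.2 TPM of tumor 12, and tumors 11 and 12 differed by -2.27 on the log2(TPM + 1) scale. S100a8 and S100a9 were nearly equal in tumors 3 and 4, with 167 and 170.4 TPM of S100a9. Csf3r was highest of the 3 in tumor 10, with 42.7 TPM against 10.0 TPM in tumor 11, and so was Cd163, with 13.3 TPM against 1.57 TPM in tumor 11 and 2.87 TPM in tumor 12.

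Genes of other cell types moved in these pairs too. Against tumor 3, tumor 4 was higher in 6 of 6 fibroblast genes (summed level 1773 against 717 TPM), 4 of 4 adipocyte genes, 7 of 7 T and NK cell genes and 6 of 6 B lymphocyte genes (120 against 21.3 TPM), and lower in 7 of 7 epithelial genes (4862 against 6361 TPM). Tumor 10 was higher than tumor 11 in 4 of 4 adipocyte genes (72.8 against 5.22 TPM) and 6 of 6 B lymphocyte genes (258 against 40.1 TPM), and lower in 6 of 7 epithelial genes (3753 against 5015 TPM). Against tumor 12, tumor 10 was higher in 3 of 4 adipocyte, 4 of 6 B lymphocyte, 3 of 7 T and NK cell and 1 of 4 endothelial genes and lower in 5 of 7 epithelial genes. Fibroblast genes were higher in tumor 10 in 5 of 6 against tumor 12 (433 against 332 TPM) and in 3 of 6 against tumor 11. In tumor 4 all 4 endothelial genes were higher and all 4 skeletal muscle genes lower than in tumor 3. The part of these genes in the myeloid differences was not tested.

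**Figure D3:**
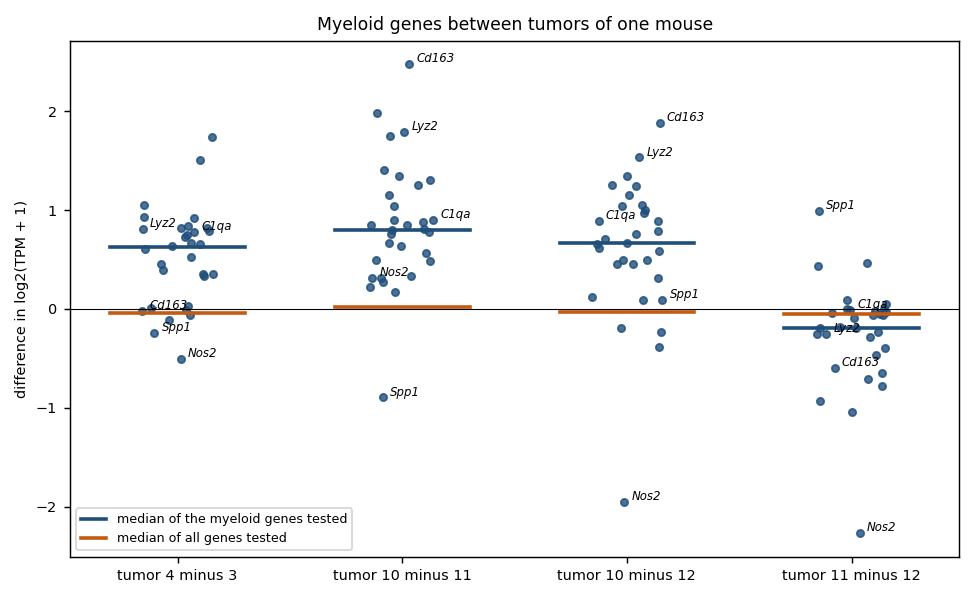
Difference in log2(TPM + 1) between tumors of one mouse for 31 of the 32 myeloid genes tested (points, jittered sideways), with the median of the 32 genes in blue and of all genes tested in orange. Most points lie above 0 for tumor 4 minus 3, tumor 10 minus 11 and tumor 10 minus 12, whereas Nos2 lies below 0 for tumor 4 minus 3, tumor 10 minus 12 and tumor 11 minus 12.

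How far each gene went with the macrophage gene Adgre1 was asked over 9 mice, as the slope of its log2(TPM + 1) on that of Adgre1 (limma, 16778 genes). Of 31 myeloid genes tested, 12 rose with Adgre1 at an adjusted p under 0.05, where 2.11% of all genes did, and 0 fell, where 0.501% did (limma; at an unadjusted p under 0.05 also 0 of 31 fell). The median slope was 0.77 over the 31 genes and 0.04 over all genes. These calls rest on tumor 2: without it limma called 0 of 16652 genes in either direction, with 702 genes (4.22%) rising at an unadjusted p under 0.05. Among them were 11 of the 31 myeloid genes (35.5%), and the median slopes were 0.57 and -0.05.

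The 12 called genes included 2 of the 6 macrophage marker genes tested, all 3 C1q genes, all 3 monocyte genes and the ligand Csf1. The slope was 1.32 ± 0.12 for Fcgr1 (SE, limma adjusted p = 0.0022), 1.12 ± 0.13 for Csf1r (adjusted p = 0.0048), 0.93 ± 0.09 for C1qa (adjusted p = 0.0024), 1.49 ± 0.14 for Cx3cr1 (adjusted p = 0.0024) and 1.34 ± 0.21 for Csf1 (adjusted p = 0.017). The others were C1qb, C1qc, Apoe, Trem2, Ccr2, Ly6c2 and Cd86, with slopes between 0.77 and 1.13. The macrophage markers Cd68, Lyz2, Fcgr3 and Mertk were not called, with adjusted p between 0.052 and 0.20 (limma) and slopes between 0.45 and 0.77.

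Without tumor 2 the slopes of the 12 called genes stayed above 0 but were mostly smaller and none passed the adjusted threshold. The slope was then 0.93 for Fcgr1, 0.76 for Csf1r, 0.64 for C1qa, 1.17 for Cx3cr1, 1.69 for Ly6c2 and 0.43 for Csf1, whose 95% interval of -0.05 to 0.90 reached 0. Those of Fcgr1, Csf1r, the C1q chains, Apoe, Cx3cr1, Ly6c2 and Cd86 excluded 0 before adjustment, as did those of Cd68, with 0.69, and Mertk, with 0.57.

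The 4 neutrophil genes tested, Nos2 and Spp1 had no called slope. Csf3r came nearest, with a slope of 1.04, a 95% interval of 0.47 to 1.61 and an adjusted p of 0.062 (limma), and its slope was 0.08 without tumor 2, with an interval of -0.67 to 0.82. The slope was 0.33 for S100a8, with a 95% interval of -1.08 to 1.75, 0.64 for Nos2, with an interval of -0.18 to 1.47, and -0.02 for Spp1, with an interval of -1.38 to 1.34. Without tumor 2 it was -1.04 for S100a8, -0.50 for Nos2 and -1.08 for Spp1. The intervals of these 3 genes are wide and leave room for a slope like that of C1qa, so the data do not show that these genes are unrelated to Adgre1.

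In the other lists, 10 of 19 further macrophage genes tested rose with Adgre1, 0 of 11 further neutrophil genes (4 at an unadjusted p under 0.05, limma), 3 of 13 further dendritic cell genes, namely Itgax, Naaa and Fscn1, and 2 of 18 ligands, Ccl2 and Ccl12. Siglec1, a macrophage adhesion receptor, had a slope of 1.28 and Itgam, an integrin of macrophages and neutrophils, one of 1.25. Over all genes the largest statistics were those of Cxcl10, Ifit3 and Ifit3b, genes induced by interferon, with slopes of 2.22, 1.99 and 1.73, and then of Fcgr1 and C1qc. The 5 genes with the largest statistics downwards were Acp6, Srfbp1, Insig1, Apobec2 and Aatk, with slopes between -1.33 and -0.56. These calls rest on tumor 2 as well. Of the genes of other cell types, the endothelial genes Cdh5 and Kdr rose, 2 of 4 tested. By limma 0 of 7 epithelial, 0 of 7 T and NK cell, 0 of 6 fibroblast, 0 of 3 adipocyte, 0 of 4 mast cell and eosinophil, 0 of 6 B lymphocyte and 0 of 4 skeletal muscle genes were called. At an unadjusted p under 0.05, 1 epithelial, 2 T and NK cell and 1 fibroblast gene rose, and 5 B lymphocyte genes and 1 skeletal muscle gene fell, where 13.2% of all genes rose and 8.89% fell by that rule.

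**Figure D4:**
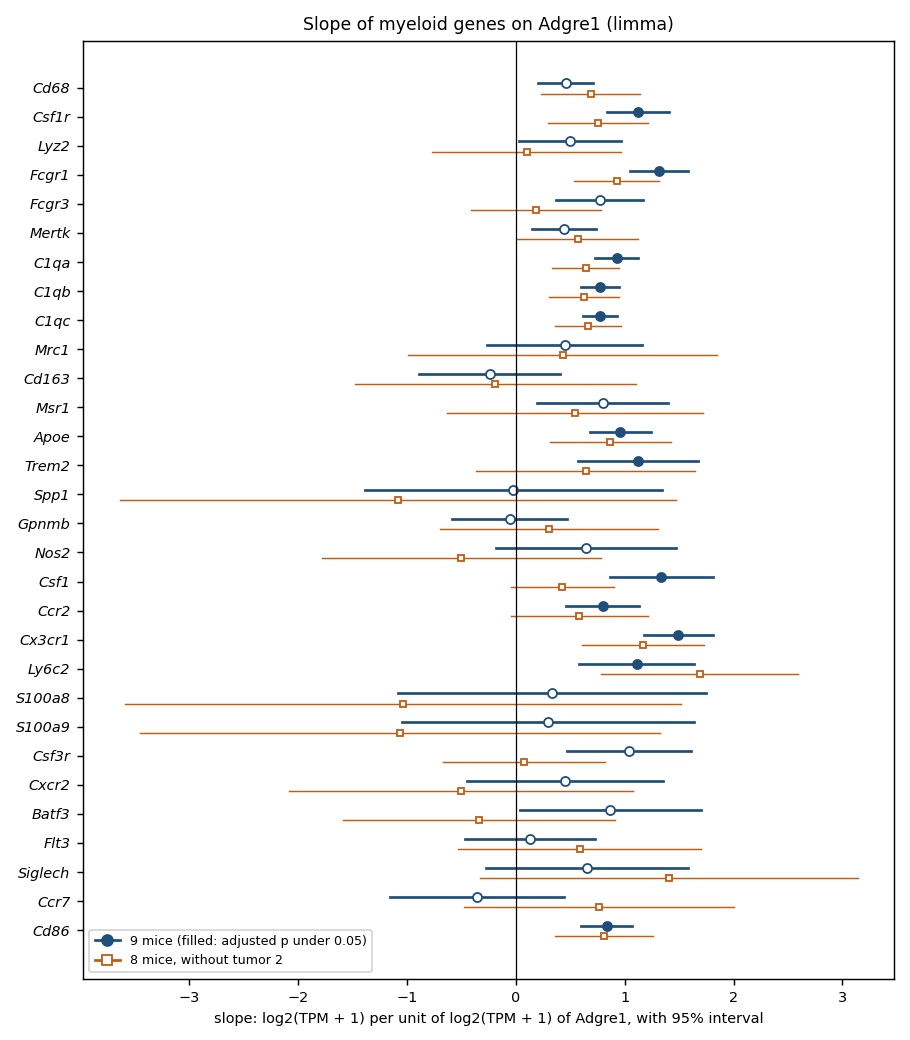
Slope of 30 of the 31 myeloid genes tested on Adgre1, in log2(TPM + 1) per unit, with its 95% interval, over 9 mice (blue circles, filled where the adjusted p was under 0.05) and over 8 mice without tumor 2 (orange squares). The C1q genes, Fcgr1, Csf1r and Cx3cr1 stay above 0 in both, while S100a8, S100a9 and Nos2 change sign and have wide intervals.

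In all, 10 pairs of genes were compared over 9 mice with exact permutation tests of Pearson's r and Spearman's rho, two-sided, with adjustment over the 10 pairs, and r was taken again without the 2 mice farthest from the median of the first gene. S100a8 and S100a9, the subunits of one protein complex, went together most closely. Their r was 0.98 (exact permutation p = 5.8e-05, adjusted p = 0.00058) and their rho 0.97 (exact permutation p = 0.00017, adjusted p = 0.0017). Without tumors 2 and 9 r was 0.89 (exact permutation p = 0.0054).

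S100a8 and Csf3r had an r of 0.54 (exact permutation p = 0.15, adjusted p = 0.18) and a rho of 0.83 (exact permutation p = 0.0083, adjusted p = 0.021), and r was 0.78 without tumors 2 and 9 (exact permutation p = 0.034). Tumor 9, with 17.5 TPM of Csf3r and 1.34 TPM of S100a8, and tumor 2, with 0.522 and 10.8 TPM, lay off the line of the other mice in opposite directions. Csf3r and Cxcr2 had an r of 0.74 (exact permutation p = 0.0049, adjusted p = 0.016) and a rho of 0.85 (exact permutation p = 0.0061, adjusted p = 0.020). Without tumors 2 and 7 r was 0.66 (exact permutation p = 0.094, 7 mice), and leaving out 1 mouse at a time gave an r between 0.69 and 0.92.

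Csf1 and Csf1r, ligand and receptor, had an r of 0.94 (exact permutation p = 0.012, adjusted p = 0.017) and a rho of 0.48 (exact permutation p = 0.19, adjusted p = 0.24). Without tumor 2 alone r was 0.49, and without tumor 2 and the mouse of tumors 3 and 4 it was 0.50 (exact permutation p = 0.24).

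Apoe and Trem2 had an r of 0.88 (exact permutation p = 0.0067, adjusted p = 0.017), which was 0.32 without tumors 2 and 9 (exact permutation p = 0.49). Ccr2 and Ly6c2 had an r of 0.90 (exact permutation p = 0.0099, adjusted p = 0.017), which was 0.67 without tumors 2 and 8 (exact permutation p = 0.098). Xcr1 and Clec9a had an r of 0.88 (exact permutation p = 0.012, adjusted p = 0.017), which was 0.47 without tumors 2 and 9 (exact permutation p = 0.32). Their rho was 0.60, 0.73 and 0.62 (adjusted p = 0.14, 0.062 and 0.14 by exact permutation). The r of Apoe and Trem2 and of Xcr1 and Clec9a thus rests on the tumors left out. For Ccr2 and Ly6c2 r no longer passed with 7 mice, while leaving out 1 mouse at a time gave an r between 0.90 and 0.94.

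Mrc1 and Cd163 had an r of -0.27 (exact permutation p = 0.50, adjusted p = 0.55), which was 0.35 without tumors 7 and 8 (exact permutation p = 0.45). Spp1 and Gpnmb had an r of 0.03 (exact permutation p = 0.94, adjusted p = 0.94) and a rho of -0.40 (exact permutation p = 0.29, adjusted p = 0.32). Without tumors 2 and 9 the r of Spp1 and Gpnmb was -0.88 (exact permutation p = 0.0071), so that no single value describes this pair. Of the 10 pairs, 7 passed for r, and 5 did without tumor 2.

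**Figure D5:**
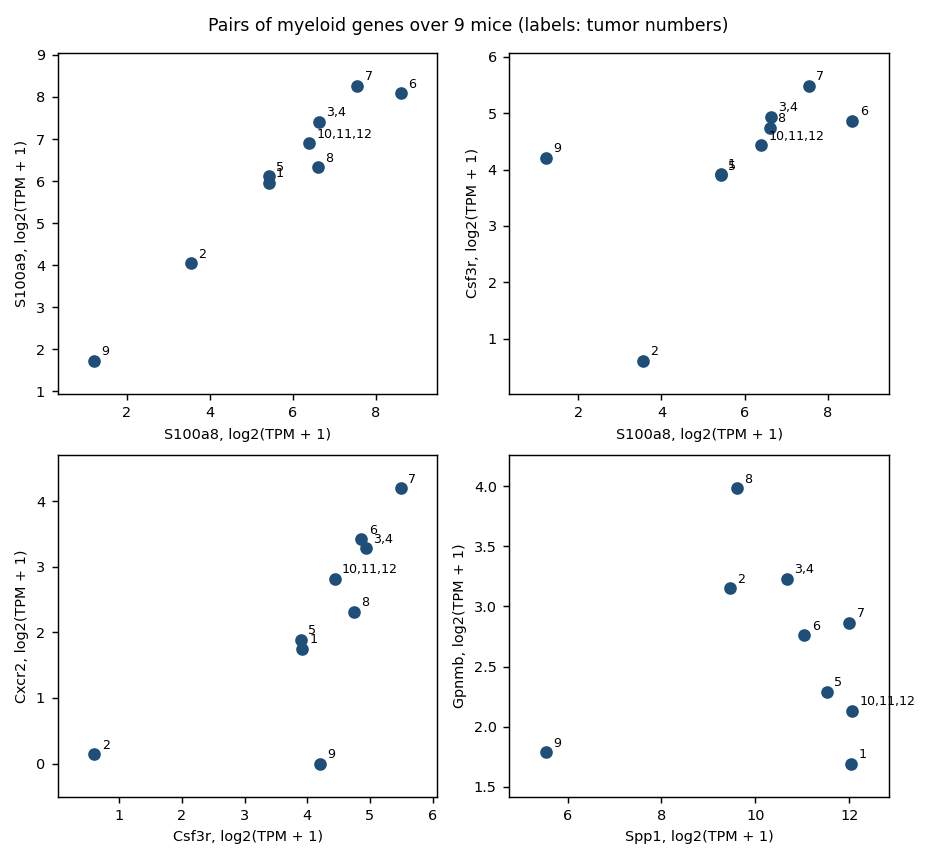
Level of 4 pairs of genes in log2(TPM + 1), with 1 point per mouse, labelled by its tumors. S100a8 and S100a9 fall along 1 line, tumors 2 and 9 lie off the line for S100a8 and Csf3r, tumor 2 lies at the low end for Csf3r and Cxcr2, and tumor 9 stands apart at low Spp1.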

How the data were processed

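Bulk RNA of 12 tumors from 9 mice was analysed. The authors made stranded poly(A) libraries, trimmed and aligned the paired reads to GRCm38 with HISAT2 and deposited TPM values from StringTie (version 2.1.6 in the submitters' processing notes), 1 value per Ensembl gene and tumor with no pooling. How transcripts were summed per gene is not given in the sources used here. TPM is relative, so a few abundant genes lower all others.

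The 38 genes were matched by symbol, and 1 of them, with the pair it belongs to, enters the counts but is not reported here. The members and lists were chosen with earlier results of these data known. log2(TPM + 1) was tested with limma 3.58.1 in R 4.3.3 (trend in the prior, a filter at a mean TPM of 1, Benjamini-Hochberg over all of them): an F test over mice on 12 tumors, and a slope on Adgre1 over 9 mice after averaging tumors of a mouse. Gene pairs were tested by exact permutation over 9 mice. The p-values of the slopes and of the gene pairs are set against the spread between these mice. Those of the F test are set against the spread between tumors of one mouse. Values were handled in Python 3.11.15 (scipy 1.17.1, pandas 2.3.3, numpy 2.4.6) and drawn with matplotlib 3.10.9, and the statistics were tested on simulated data. Alternatives were a pseudocount of 0.1, no filter, TPM rescaled without mitochondrial genes, no trend, C1qa or Csf1r in place of Adgre1, each tumor as a unit and leaving out each mouse. Named genes were the 38 genes, the genes of the marker lists and the 5 genes with the largest slope statistics each way; others are marked. Gene positions came from GENCODE vM21 (GRCm38), which placed 47137 of 47593 genes. The lists were macrophage, neutrophil, dendritic cell, ligand, mast cell and eosinophil, epithelial, B lymphocyte, T and NK cell, fibroblast, endothelial, adipocyte and skeletal muscle genes.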

Additional observations from a re-analysis of the deposited data

Results flagged for a closer look

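Over 9 mice, with tumors of a mouse averaged, 18 of the 38 myeloid genes had a highest or lowest mouse that lay far from the rest by Dixon's ratio (at the 95% critical value), where chance gives about 1 gene in 20. Of the 32 myeloid genes with a mean of 1 TPM or more, 15 (46.9%) did, against 18.5% of all 16779 such genes, and tumor 2 was the value in 12 (37.5%), against 9.89% of all. These genes are not independent of each other, and 14 of the 18 values came from tumor 2.

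Tumor 2 was the low value, in log2(TPM + 1), for Adgre1 (2.93), Csf1r (3.19), Fcgr1 (1.04), Fcgr3 (4.16), C1qa (6.39), C1qb (6.79), C1qc (6.65), Trem2 (1.15), Csf1 (1.55), Cx3cr1 (0.79), Csf3r (0.61) and Cd86 (1.73). It was the high value for Marco (1.61) and Cd209a (0.44), which were near or at 0 elsewhere. Tumor 2 listed Epcam at 0 and had the highest summed level of the B lymphocyte genes, and the part of these in the myeloid values was not tested.

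Tumor 9 was the low value for Spp1 (5.55) and the high value for Xcr1 (2.09) and Siglech (4.91). Tumor 8 was the high value for Ly6c2 (6.89).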

How the results depend on the processing

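No paired analysis was possible because the series has a single condition. Depth and counting error are unknown in TPM. The spread within mice rests on 5 tumors, and on fewer when a mouse with several tumors is left out. Leaving out 1 mouse gave between 2386 and 8030 genes and between 10 and 21 myeloid genes that differed between mice, between 0 and 845 genes rising and 0 and 293 falling with Adgre1, between 0 and 15 myeloid genes rising with it, and between 5 and 8 of 10 pairs passing. The count of 0 came from leaving out tumor 2. The rising genes were 183 without tumor 1, 105 without tumor 5, 151 without tumor 7, 751 without tumor 8, 845 without tumor 9 and 100 without tumors 10 to 12, while the myeloid genes among them stayed between 9 and 15. The cause was not tested. Of the genes tested, 354 rose and 84 fell with Adgre1. With a pseudocount of 0.1, 602 rose. Without a filter, where more genes were tested, 116 rose and 16 fell. In the F test 12 of 38 myeloid genes and 8825 of 30363 genes then differed between mice, which are similar shares. With C1qa in its place 951 rose and 443 fell, with Csf1r 834 and 398, and with each tumor as a unit 742 and 308. Without tumors 2 and 8, chosen after seeing the data, 3443 of 16590 genes (20.8%) and 6 of 32 myeloid genes (18.8%) differed between mice, 0 genes rose and 0 fell (limma; 400 rose at an unadjusted p under 0.05, and 10 myeloid genes did), 0 myeloid genes rose and 1 of 10 pairs passed. Slopes that changed sign there, none of them called, were those of Lyz2 (-0.75), Fcgr3 (-0.28), Mrc1 (-1.08), Cd163 (0.19), Msr1 (-0.52), Nos2 (-1.09), S100a8 (-2.34), S100a9 (-1.89), Csf3r (-0.00089), Cxcr2 (-0.79) and Ccr7 (0.39), and the r of Mrc1 and Cd163 was 0.048. Leaving out 1 mouse, slopes that changed sign ranged from -1.08 to 0.38 for Spp1, -0.33 to 0.30 for Gpnmb, -0.50 to 0.80 for Nos2, -1.04 to 0.73 for S100a8, -1.06 to 0.67 for S100a9, -0.50 to 0.66 for Cxcr2, -0.34 to 1.42 for Batf3 and -0.65 to 0.77 for Ccr7, and the r of Spp1 and Gpnmb from -0.82 to 0.20. The slope of Spp1 was 0.077 on C1qa and 0.044 with each tumor as a unit, and its r with Gpnmb was then -0.094.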

Other observations

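Mast cell and eosinophil genes were low in all tumors. The summed level of 8 such genes ranged from 1.79 TPM in tumor 8 to 27.5 TPM in tumor 4 and 19.8 TPM in tumor 3, the 2 tumors of 1 mouse, where the mast cell protease Mcpt4 had 9.69 and 8.10 TPM and did not exceed 3.06 TPM elsewhere. The eosinophil peroxidase Epx was listed at 0 in all 12. The same mouse had the highest levels of Ccl17, a chemokine of activated dendritic cells, with 81.5 TPM in tumor 3 and 57.5 TPM in tumor 4 against 8.80 TPM or less in the others.

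Markers of macrophages that settle in particular tissues differed in level. The Kupffer cell gene Clec4f was listed at 0 in all tumors, and Timd4 and Vsig4, found on resident macrophages, did not exceed 5.62 and 2.61 TPM. Folr2 ranged from 2.20 TPM in tumor 2 to 35.5 TPM in tumor 4. Of the genes used for microglia, the macrophages of the brain, Tmem119 ranged from 24.4 TPM in tumor 3 over 52.1 TPM to 254 TPM in tumor 8, and P2ry12 from 1.15 TPM in tumor 2 to 27.1 TPM in tumor 9. Prtn3, a protease of immature granulocytes, had 68.8 and 77.9 TPM in tumors 11 and 12 and 31.5 TPM in tumor 10 of the same mouse, against 21.3 TPM or less elsewhere, while the granule genes Elane and Ctsg of the same stage were at or near 0 there.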
